A study of Mus musculus with 32 samples.

Results

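The 8 AE17 IPL tumors were compared with each other, to find which genes and which tissue or immune programs differed most among them for their level of expression, and which of these differed together. They were the 8 of 32 tumors whose sample titles name AE17 and the pleural cavity. AE17 is a mouse mesothelioma cell line. 1000000 cells of this 1 line were inoculated intrapleurally (IPL) into female C57BL/6 mice of 8 to 10 weeks, and the tumors, each from its own mouse, were collected on day 10. No agent and no engineered allele was used in these mice, and the labels give nothing but a replicate number to tell the tumors apart.

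Tumors that grow in the pleural space have no capsule and lie against the diaphragm, the muscles between the ribs, the fat and lymphoid tissue of the mediastinum, the pericardium and the lung. The study removed the lungs and surrounding tissues before RNA was extracted, and whatever else remained entered the library with the cancer cells. RNA from a bulk tumor is therefore a sum over cancer cells, stroma, vessels, immune cells and host tissue. In bulk samples fewer cells of a type and less RNA per cell cannot be told apart.

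Library totals ranged from 16663618 to 18161128 counts, and the detection limit, set at 3 counts, lay between 0.167 and 0.181 CPM (counts scaled to the effective library size). Every pair of the 8 libraries differed by more than counting error, with a chi-square of 6.87 to 57.9 for each degree of freedom, and none was a copy of another. Across genes, the mean correlation of a tumor with the others was lowest for tumor 5 (0.941), followed by tumor 8 (0.953) and tumor 1 (0.958), and was between 0.970 and 0.974 for the other 5. Since these 3 libraries stood apart, counts of variable genes are also given without them. Among mesothelial markers, those most restricted to this cell type were low in all 8 tumors, with Upk3b, a uroplakin of the mesothelial surface, between 0 and 6.41 CPM and the mesothelial transcription factor Wt1 between 0 and 2.52 CPM. Slc9a3r1, also in the list, was at 88.1 to 131 CPM.

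Immunoglobulin genes and genes of host tissue were prominent among the most variable genes. Haptoglobin (Hp), carbonic anhydrase 3 (Car3), the gluconeogenic enzyme Pck1 and the lipid droplet protein Plin4 were the 4 most variable protein-coding genes. Each gene was tested for whether its spread over the 8 tumors was larger than that of genes of like level (edgeR goodness-of-fit test on counts, adjusted over every gene whose mean reached 1 CPM). Of 13853 genes tested, 579 (4.18%) were called variable at an adjusted p under 0.05. The deviance ratio, which is 1 for a gene that follows the trend at its level, was at least 3.23 in called genes, with a median of 8.12, against a median of 0.243 over all genes tested. Because the filter acts on the mean, a gene found in a single tumor entered the test only if that tumor carried a good deal of it, so that genes of this kind were bound to be called. Without tumors 1, 5 and 8, 229 genes were called, of which 164 were among the 579, but only 432 of the 579 still reached the filter and were tested.

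**Figure D1:**
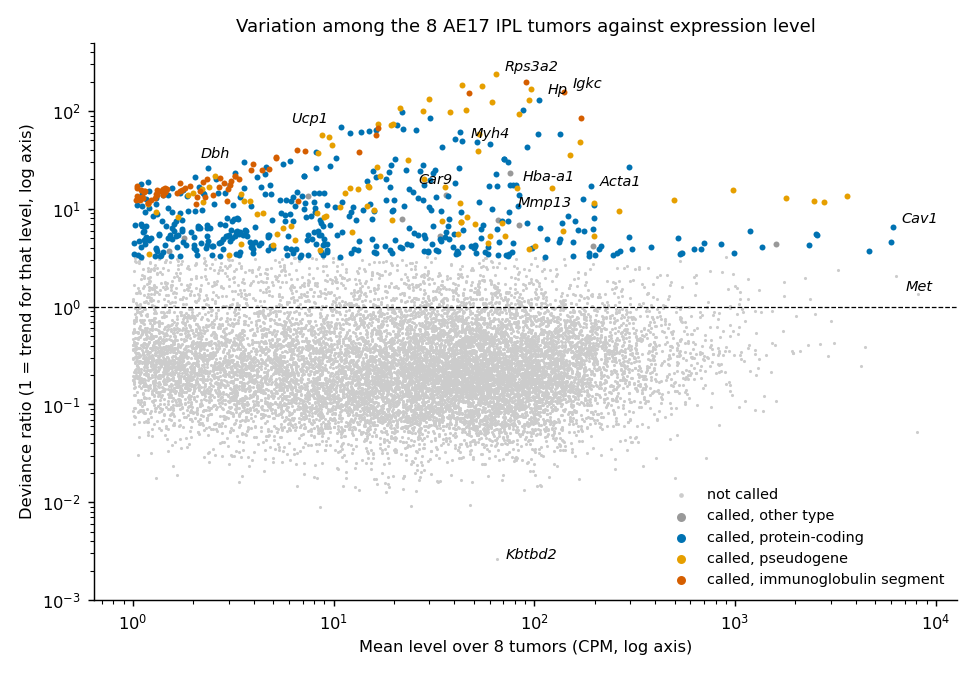
Deviance ratio of each of the 13853 genes tested against its mean level over the 8 tumors, both on log axes. Each point is a gene, colored by gene type when it was called variable, and the dashed line marks the trend at which the ratio is 1. Hp, with a ratio of 131, Ucp1, Igkc and Myh4 stand far above genes of like level, and Kbtbd2, with a ratio of 0.00264, lies far below them.

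The called genes were uneven between gene types and between tumors. Protein-coding genes made up 413 of the calls, and all 53 variable-segment and all 11 constant-segment immunoglobulin genes that were tested were called. Immunoglobulin segments held 0.239% and 0.269% of the counts in tumors 5 and 8 and at most 0.0114% in the others. Segments that reached the filter only through these 2 tumors were bound to be called, so that this share is not a result about them. Among the 413 protein-coding genes, tumor 5 was the highest for 278 and tumor 1 the lowest for 223. Over all 13853 genes tested, of any type, tumor 5 was the highest for 3253 and tumor 1 the highest for 2675. The 5 genes closest to a single level among those with a mean of at least 10 CPM were Kbtbd2, Nr2c1, Hectd3, Tmem80 and Cdk10. Kbtbd2, for example, was between 63.8 and 66.0 CPM in the 8 tumors.

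To describe programs, 660 marker and pathway genes in 49 lists were used. A program score is the mean log2 CPM of the members tested, centered on the 8 tumors, so that it gives a difference and not a level. Of the 490 members that could be tested, 132 were called, and they fell mostly in the tissue lists (71 of 140, 50.7%), less in the immune lists (39 of 207, 18.8%) and in the cell state lists (22 of 143, 15.4%), beside the 4.18% over all genes. The score range over the 8 tumors was above 2 (log2) in 14 of the 46 lists that could be scored and below 1 in 21.

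**Figure D2:**
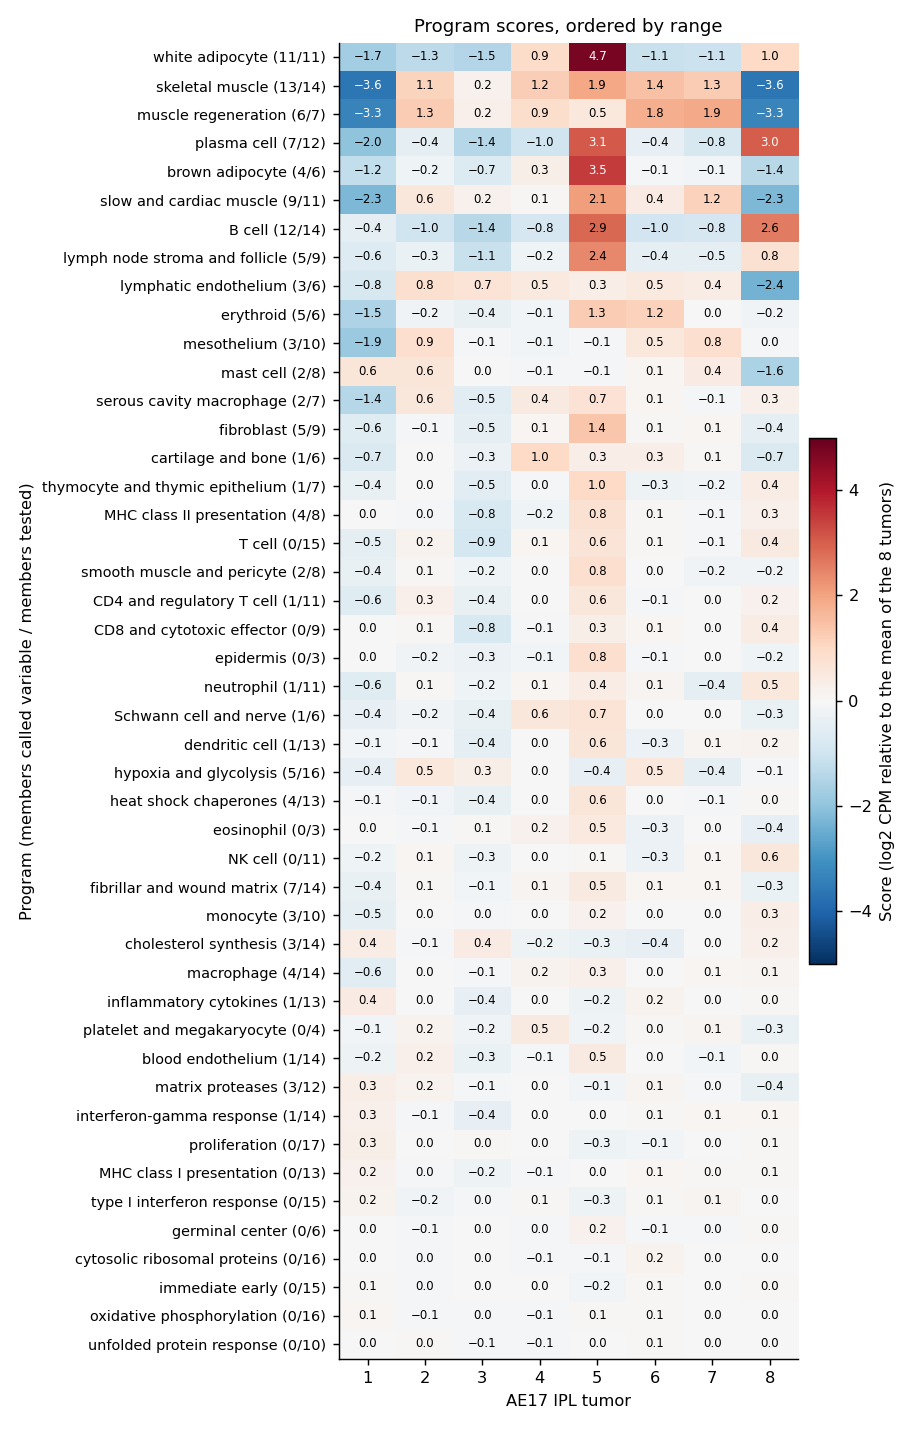
Scores of 46 gene programs (rows) in the 8 tumors (columns), as log2 CPM relative to the mean of the tumors, ordered by range, with the number of members called variable and tested beside each name. White adipocyte (4.7 in tumor 5), skeletal muscle (−3.6 in tumors 1 and 8) and plasma cell (3.1 and 3.0 in tumors 5 and 8) lie at the top, and the unfolded protein response and oxidative phosphorylation at the bottom.

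Most skeletal muscle genes were low in tumors 1 and 8. Of the 14 skeletal muscle genes tested, 13 were called (92.9%), and all 13 were lower in tumors 1 and 8 than in the other 6. Tumors 1 and 8 lay below the other 6 without overlap in 6.42% of all genes tested and 28% of those called. Myh4, the myosin heavy chain of fast fibers, was at 0.114 CPM in tumor 1 and 0.167 CPM in tumor 8, the first under and the second at the detection limit of 3 counts, and between 15.9 and 150 CPM in the other tumors, with a median of 35.3 CPM over all 8 (adjusted p = 3.17e-85). The sarcoplasmic calcium pump Atp2a1 was at 0.454 and 0.278 CPM in tumors 1 and 8 and between 22.5 and 85.3 CPM elsewhere. Tumors 1 and 8 therefore did not overlap with the other 6 for either gene. Skeletal actin, Acta1, kept a residual level in the same 2 tumors, at 49.4 and 59.9 CPM, beside 141 to 313 CPM in the others. The member that was not called was the enolase Eno3, at 117 to 156 CPM in all 8.

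Genes of developing or regenerating muscle followed the same split, and 6 of the 7 tested were called (85.7%). The acetylcholine receptor subunit Chrna1 was not, at 2.50 to 9.79 CPM. Perinatal myosin Myh8 was at 0 and 0.0556 CPM in tumors 1 and 8 and between 8.38 and 28.4 CPM in the others. Myog, the transcription factor of differentiating myoblasts, was at 0 in both and reached 10.3 CPM in tumor 6. The intermediate filament gene Des was at 1.42 and 6.11 CPM in tumors 1 and 8, beside 73.6 to 181 CPM. Myh4 and Atp2a1 were highest in tumor 5, whereas Des was highest in tumor 7 and Myog in tumor 6, so that the order of the 6 tumors differed between the sets of genes. Without tumors 1, 5 and 8, 6 skeletal muscle genes and 4 regeneration genes were called.

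Myh6, the alpha myosin heavy chain of heart muscle, was at 120 CPM in tumor 5 and at most 3.88 CPM in the other 7 tumors (adjusted p = 1.67e-90). Myl7, an atrial myosin light chain, was at 8.76 CPM in tumor 5 and at most 0.0562 CPM elsewhere. Some other genes of the list did not follow it. Myl2, a light chain of slow skeletal and ventricular muscle, was at 0.480 CPM in tumor 5 and at 4.27 CPM in tumor 7, and the slow troponin Tnnt1 was at 1.62 and 11.5 CPM in these tumors. Of 11 genes of the slow and cardiac muscle list that were tested, 9 were called. Without tumor 5, 7 of the 9 were tested and 6 called. Myosin genes resemble each other, and short reads may be shared between them.

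Fat cell genes were high in tumor 5. All 11 white adipocyte genes tested were called, and all 11 were highest in tumor 5. The hormone gene Adipoq was at 108 CPM in tumor 5, 6.27 CPM in tumor 4, 5.23 CPM in tumor 8 and at most 0.619 CPM in the other 5. The lipid droplet gene Plin1 was high in the same 3 tumors, at 89.7, 2.23 and 4.503 CPM in tumors 5, 4 and 8, and at most 0.171 CPM elsewhere. The fatty acid carrier Fabp4 was at 598 CPM in tumor 5 against 17.9 to 50.7 CPM in the rest. Without tumor 5, 9 of the 11 were tested and 6 called, and the score range fell from 6.48 to 3.04, since tumors 4 and 8 still lay above the others. Hp, an acute phase protein that adipocytes also make, was at 704 CPM in tumor 5, 67.2 in tumor 8, 44.9 in tumor 4 and between 3.01 and 6.90 in the other 5.

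Brown fat genes were high in the same tumor. Ucp1, the uncoupling protein by which brown fat produces heat, was at 86.6 CPM in tumor 5 and at most 0.527 CPM elsewhere (adjusted p = 7.58e-97). Otop1, another brown fat gene, was at 7.44 CPM in tumor 5 and at most 0.293 CPM elsewhere. Of 6 brown adipocyte genes tested, 4 were called. Without tumor 5, 3 of the 4 did not reach the filter and were not tested, and the one that was tested was not called. The other called members, Cox8b and Fabp3, which muscle also expresses, were highest in tumor 5 as well, at 10.9 and 8.10 CPM, and low in tumors 1 and 8, and they fell in the module of the muscle genes. Cyp2e1, placed in the liver list, was at 57.4 CPM in tumor 5 and 4.22 CPM in tumor 4, while the other liver genes did not reach the filter. It was thus high in the tumors where Adipoq was high.

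Genes of sympathetic neurons were also highest in tumor 5. This set of 19 genes was put together after the values were seen, and its counts carry no test of their own. Of these, 12 were tested, all 12 were highest in tumor 5, and 11 were called. Dbh, which converts dopamine to noradrenaline, was at 28.5 CPM in tumor 5 and at most 0.117 CPM in the other 7 tumors. The noradrenaline transporter Slc6a2 was at 46.2 CPM, against at most 0.586 CPM. Th, the first enzyme of the pathway, was at 18.8 CPM in tumor 5 and at 0 in every other tumor. The synaptic gene Snap25, at 9.42 CPM in tumor 5, was at most 0.0556 CPM elsewhere. Gap43, a growth cone protein, was not called, with values from 1.56 to 7.44 CPM.

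**Figure D3:**
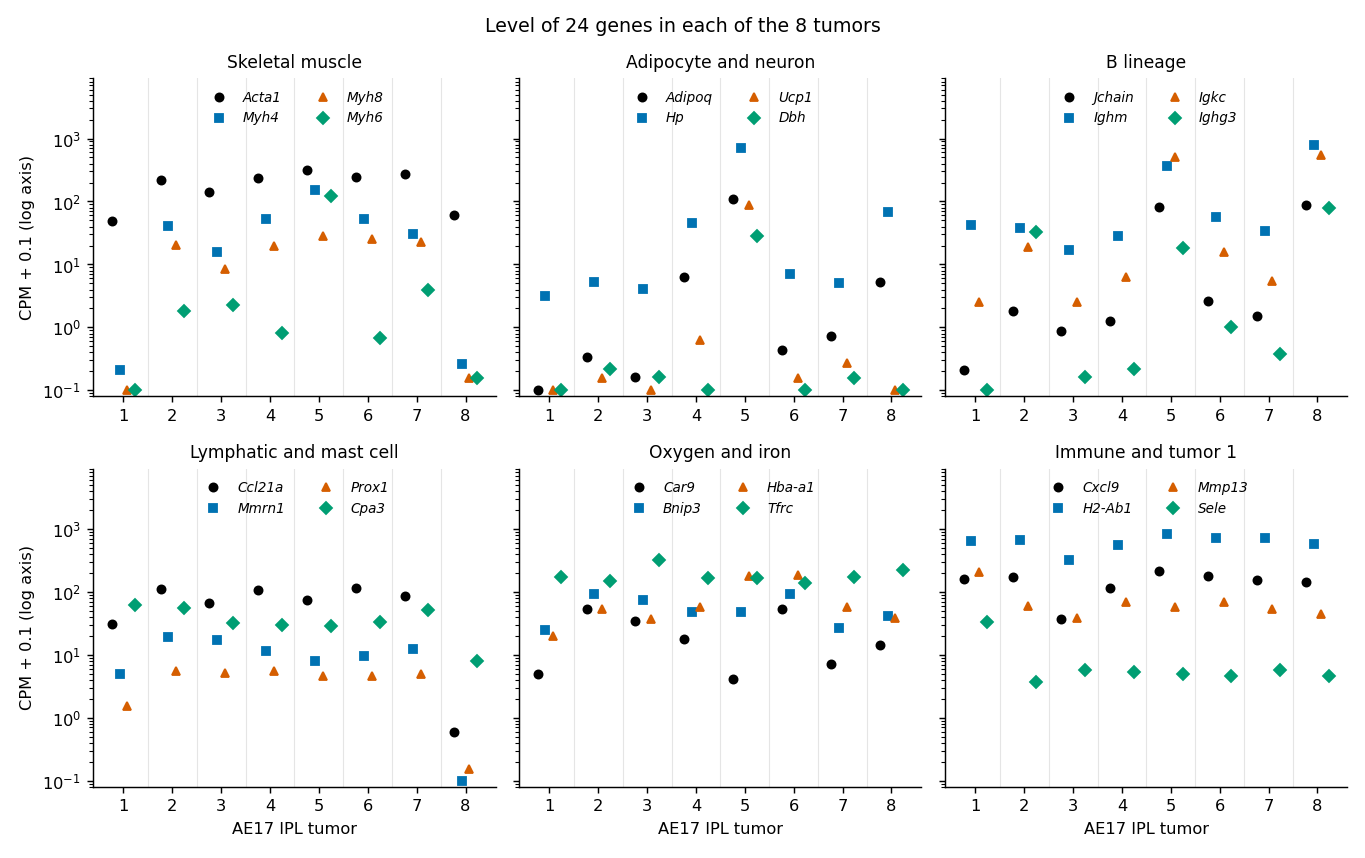
Level of 24 genes in each tumor, as CPM plus 0.1 on a log axis, with 1 symbol per gene and 4 genes per panel. Muscle genes drop in tumors 1 and 8 (Myh4 at 0.114 and 0.167 CPM), adipocyte and neuron genes peak in tumor 5 (Dbh at 28.5 CPM), B lineage genes peak in tumors 5 and 8, and lymphatic genes drop in tumor 8 (Mmrn1 at 0).

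B lineage genes marked tumors 5 and 8. Of the 14 B cell genes tested, 12 were called, and so were 7 of 12 plasma cell genes. The kappa light chain constant gene Igkc was at 515 CPM in tumor 5 and 557 CPM in tumor 8 and at most 19.01 CPM in the rest. The joining chain gene Jchain, made by antibody-secreting cells, was at 82.7 and 86.7 CPM, against at most 2.56 CPM. Neither tumor overlapped with the other 6 for these 2 genes, as in 8.29% of all genes tested and 27.6% of those called. Without tumors 1, 5 and 8, 5 of the 12 called B cell genes were tested and 1 called, and 5 of the 7 plasma cell genes were tested and 4 called.

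The 2 tumors were not alike in their antibody classes. IgM (Ighm) was higher in tumor 8, at 785 CPM, than in tumor 5, at 368 CPM, with 16.7 to 57.2 CPM in the others. IgD (Ighd) had the opposite order, at 63.3 CPM in tumor 5 and 36.3 CPM in tumor 8. IgG1 (Ighg1) was at 110 CPM in tumor 5 and 19.8 CPM in tumor 8, whereas IgA (Igha) was at 10.9 and 29.02 CPM. IgG3 (Ighg3) was the exception to the pairing, since it was also at 32.8 CPM in tumor 2, above the 17.99 CPM of tumor 5 and below the 77.7 CPM of tumor 8. IgG2c (Ighg2c), with the largest deviance ratio of the immunoglobulin constant genes (199), was at 412 CPM in tumor 5, 311 CPM in tumor 8 and at most 3.59 CPM in the others. In tumor 2 the other IgG genes were at or under 0.878 CPM. The IgG constant genes resemble each other and could share reads. With 1 library per tumor, differences between 2 tumors have no replicate.

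Some genes of the same lists stood outside this pattern. Pax5, the transcription factor of B cell identity, was not called and was between 48.0 and 106 CPM in all 8 tumors. Cd72, a B cell co-receptor, was at 65.0 to 129 CPM throughout. Sdc1, a plasma cell marker that epithelial cells also carry, was at 300.3 to 397 CPM, and Xbp1, a transcription factor of secretory cells, at 128 to 192 CPM. No germinal center gene among 6 was called, with Bcl6, the factor that governs germinal center B cells, at 22.6 to 38.3 CPM.

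Genes of lymphoid follicles were high in the same 2 tumors. The follicular chemokine Cxcl13 was at 23.6 and 25.3 CPM in tumors 5 and 8 and between 1.03 and 4.69 CPM elsewhere. Cr2 and Fcer2a, receptors of follicular B cells, were at 22.7 and 23.3 CPM in tumor 5, 8.78 and 11.5 CPM in tumor 8, and at most 0.908 CPM in the others. The chemokine Ccl21a, which lymphatic vessels and lymph node stroma make, was instead low in tumor 8. It was at 0.5003 CPM there and between 30.5 and 117 CPM in the other 7. Gm13304 and Gm21541 are near-identical copies of Ccl21a and had nearly the same values, so that the reads of the 3 genes cannot be assigned with certainty. Of 9 genes of this list, 5 were called. Without tumors 1, 5 and 8, 3 of the 5 were tested and none was called. Among 7 thymus genes tested, Satb1, a chromatin organizer of T cells, was the one called (none without tumor 5), at 20.5 CPM in tumor 5, 7.56 CPM in tumor 8 and 2.67 to 4.56 CPM in the others. The thymic chemokine Ccl25 was at 9.54 to 11.5 CPM in all 8 tumors.

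Several lymphatic vessel genes were low in tumor 8. Prox1, the transcription factor that specifies lymphatic vessels, was at 0.0556 CPM in tumor 8, 1.42 CPM in tumor 1 and 4.56 to 5.38 CPM in the other 6. The lymphatic matrix protein Mmrn1 was at 0 in tumor 8, 4.77 CPM in tumor 1 and 7.92 to 19.2 CPM in the others. Lyve1, a hyaluronan receptor, was lowest in tumor 1, at 1.14 CPM, then in tumor 8, at 4.22 CPM. These 3 of 6 members were called, with 1 without tumor 8 and 5 without tumor 5. Of those not called, the receptor Flt4 was at 5.06 CPM in tumor 8 and 11.3 to 23.5 CPM in the others, and podoplanin, Pdpn, which mesothelial and tumor cells also make, was at 163 CPM in tumor 8, within the 117 to 217 CPM of the rest. Blood vessel genes did not share the drop. The endothelial cadherin Cdh5 was at 49.0 CPM in tumor 8, within the 45.2 to 71.9 CPM of the others, and Pecam1 at 57.9 CPM, within 39.6 to 87.5 CPM. One of 14 blood endothelial genes was called, the tip cell peptide Apln, at 18.3 to 50.3 CPM, with none without tumor 6, 7 or 8 and 2 without tumor 5.

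Mast cell genes were low in the same tumor. The protease gene Cpa3 was at 7.95 CPM in tumor 8 and between 28.2 and 62.3 CPM elsewhere, and the tryptase Tpsab1 at 0.5003 CPM against 3.92 to 9.48 CPM. Both ranges exclude tumor 8. They were the 2 members called of 8, with none without tumor 8 and 4 without tumor 5. Gata2, a transcription factor that mast cells share with other cells, was at 17.4 CPM in tumor 8 and 14.1 to 28.9 CPM in the rest.

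Red cell genes were high in tumors 5 and 6 and low in tumor 1. The alpha globin Hba-a1 was at 179 and 185 CPM in tumors 5 and 6, 19.9 CPM in tumor 1 and 37.0 to 57.8 CPM in the other 5. The beta globin Hbb-bs had the same 2 tumors on top, at 196 and 174 CPM, and 17.3 CPM in tumor 1. The 4 globin genes are near-identical in pairs and are not independent. Alas2, the heme synthesis enzyme of red cell precursors, ran from 0.284 to 4.39 CPM and was not called. Tfrc, the transferrin receptor of the same list, was called but had another pattern, at 318 CPM in tumor 3 and 135 to 218 CPM elsewhere.

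Some genes of the serosal lining were at 0 in tumor 1. Upk3b, Lrrn4 and Muc16, the 3 mesothelium genes called of 10, were all at 0 in tumor 1, and so was Wt1, which was not called. Upk3b was between 1.61 and 6.41 CPM in the other 7 tumors, and Muc16, a mucin of the serosal surface, between 0.293 and 2.92 CPM. Without tumor 1, no mesothelium gene was called, and without tumor 5, 5 were. The most abundant member, the scaffold protein Slc9a3r1, which other epithelial cells also make, was not called and was highest in tumor 1, at 131 CPM, against 88.1 to 121 CPM in the others. The summed level of the 10 members was 139 CPM in tumor 1, near the median of the 8 tumors. Alox15, a lipoxygenase of resident serosal macrophages, was at 0 in tumor 1 and 1.08 to 7.72 CPM elsewhere. Marco, a scavenger receptor of resident macrophages, was at 0.0568 CPM in tumor 1 and highest in tumor 5, at 15.7 CPM. Atp2a1, Hba-a1 and Upk3b were thus all at their lowest or near it in tumor 1.

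Several fibroblast and matrix genes were highest in tumor 5. Type I collagen was highest in tumor 5, with Col1a1 at 7653 CPM there and 3424 to 4586 CPM in the other 7, and Col1a2 at 4706 CPM against 1848 to 2542 CPM. Col3a1 was not called, at 6610 to 10777 CPM. The proteoglycan Bgn was at 773, 797 and 870 CPM in tumors 1, 8 and 3 and at 1173 to 1980 CPM in the other 5. The wound matrix gene Tnc was at 838 and 1002 CPM in tumors 8 and 1, against 1098 to 1754 CPM. Of 14 matrix genes, 7 were called, 4 without tumor 5, 3 without tumor 1 and none without tumors 1, 5 and 8. Of 9 fibroblast genes, 5 were called, over a score range of 2.01 (log2). Without tumor 5, 4 of the 5 were tested and 2 called, and without tumors 1, 5 and 8, 4 were tested and none called. Pi16, a marker of adventitial fibroblasts, was at 44.2 CPM in tumor 5 and at most 7.73 CPM elsewhere. Pdgfra, the general fibroblast receptor, was at 246 to 338 CPM and was not called.

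None of 15 T cell and none of 9 cytotoxic genes was called (edgeR goodness-of-fit test), with 3 and 0 at an unadjusted p under 0.05. Cd8a was at 27.5 CPM in tumor 3 and 42.7 to 54.0 CPM in the other 7, and the cytotoxic granule gene Nkg7 was at 11.8 CPM against 24.5 to 34.4 CPM. The T cell kinase Lck was at 11.999 CPM in tumor 3, 15.3 CPM in tumor 1 and 19.1 to 36.5 CPM in the others. The median deviance ratio was 1.35 in the T cell list, above the 0.243 over all genes, and 0.672 in the cytotoxic list.

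Tumor 3 was low for Cxcl9 and for genes of antigen presentation on MHC class II. The T cell attracting chemokine Cxcl9 was at 36.4 CPM in tumor 3 and 116 to 217 CPM in the other 7 (adjusted p = 1.15e-08), and it was not called when tumor 3 was left out. The MHC class II genes H2-Ab1 and H2-Eb1 were at 320.1 and 355 CPM in tumor 3, against 563 to 830 CPM and 637 to 1017 CPM. Il1b, an inflammatory cytokine, was at 6.33 CPM in tumor 3, below the 17.3 to 43.2 CPM of the others. Of 8 MHC class II genes, 4 were called, and 1 without tumor 3. That gene, H2-Ob, which B cells express, was instead at 40.9 and 23.9 CPM in tumors 5 and 8 and at most 6.19 CPM elsewhere. None of 13 MHC class I genes was called or had an unadjusted p under 0.05.

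The macrophage and monocyte scores of tumor 3 lay near the mean of the tumors (−0.08 and −0.05), and the called members of these lists went in both directions there. The mannose receptor Mrc1 was at 523 CPM there and 179 to 323 CPM in the other 7. Chil3, a chitinase-like protein of monocytes and macrophages, was at 23.2 CPM, against 3.12 to 12.8 CPM. The hemoglobin scavenger receptor Cd163 was at 16.2 CPM in tumor 3 and also above 10 CPM in tumors 4, 5 and 8, beside 1.48 to 5.91 CPM in tumors 1, 2, 6 and 7. Plac8, an interferon-responsive gene of monocytes, was at 28.9 CPM in tumor 3 and 63.2 to 121 CPM in the others. Mrc1, Chil3, Plac8 and Il1b were not called when tumor 3 was left out. Il1b, the 1 inflammatory cytokine gene called of 13, was not called without tumor 4 either.

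The genes Tsc22d3 and Per1, which glucocorticoids induce, were high in tumors 3, 4 and 5. This group was also chosen after its values were seen. Tsc22d3 was at 144, 115 and 90.2 CPM in these tumors and 35.6 to 65.3 CPM in the other 5, and Per1 was at 166, 155 and 105 CPM against 48.4 to 83.6 CPM. Tumors 3, 4 and 5 lay above the other 5 without overlap in 1.5% of all genes tested and 1.38% of those called. Tsc22d3 and Per1 were the 2 genes called of 8 in the group. Other members did not follow them. The metallothionein Mt2 was lowest in tumors 3, 4 and 5, at 120, 114 and 107 CPM, against 122 to 156 CPM. Mt1 showed no such order, and Dusp1 was at 39.0 and 38.1 CPM in tumors 3 and 4 but at 21.1 CPM in tumor 5. Fkbp5, another target, was at 209 CPM in tumor 3 and 81.2 to 111 CPM elsewhere, with an adjusted p of 0.0634. Per1 is also a clock gene, and none of 13 other clock genes was called, over a score range of 0.48 (log2).

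Oxygen-responsive genes set tumors 2, 3 and 6 above the rest. Car9, the carbonic anhydrase that hypoxia induces, was at 53.2, 34.9 and 53.6 CPM in tumors 2, 3 and 6 and at 4.02 to 17.9 CPM in the other 5 (adjusted p = 4.37e-19). Bnip3, a mitophagy receptor, was at 90.7, 74.8 and 91.8 CPM in the same tumors and 24.4 to 47.6 CPM elsewhere, and the oxygen sensor Egln3 at 65.6, 74.3 and 77.6 CPM against 27.7 to 52.8 CPM. These 3 tumors did not overlap with the other 5 for any of the 3 genes, as in 1.7% of all genes tested and 2.59% of those called. Of 16 genes of the hypoxia and glycolysis list, 5 were called, with 3 without tumor 7, 4 or 5 without any other single tumor and 5 without tumors 1, 5 and 8. The lactate transporter Slc16a3, which is not in the list, was at 182, 201 and 219 CPM in the 3 tumors and 67.8 to 143 CPM in the others. The glycolytic enzymes Ldha and Pgk1 were not called, at 753 to 1253 CPM and 614 to 1145 CPM. None of the 5 called members entered a module with the muscle, fat or B cell genes. The programs of muscle, fat and B cells were left out of the paired tests below, so that their relation to hypoxia genes was not tested.

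Tumor 1, low for so many host genes, was high for a different set, which was picked after its values were seen. The collagenase Mmp13 was at 207 CPM in tumor 1 and 38.1 to 69.2 CPM in the other 7. E-selectin, Sele, was at 32.8 CPM against 3.63 to 5.57 CPM. The motor protein Myo10, which builds filopodia, was at 284 CPM against 102 to 125 CPM. The protocadherin Pcdh7 was at 86.0 CPM against 24.01 to 35.3 CPM, and the prostaglandin synthase Ptges at 83.7 CPM against 26.3 to 42.2 CPM. Desmocollin 2, Dsc2, was at 24.4 CPM in tumor 1, 6.66 CPM in tumor 5 and at most 2.25 CPM in the others. Sele, Myo10, Pcdh7, Ptges and Mmp13 were not called when tumor 1 was left out.

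Several neighboring genes on chromosome 6 were low in tumors 1 and 5. In the order of the annotation, Cav2, Cav1, Met, Capza2, St7, Wnt2, Asz1, Cftr and Cttnbp2 are the 9 tested protein-coding genes between Tes and Lsm8, and 5 of them were called. Cav1, the coat protein of caveolae, was at 3159 CPM in tumor 1, 3422 CPM in tumor 5 and 6091 to 8263 CPM in the other 6 (adjusted p = 4.17e-06). Its partner Cav2 was at 1380 and 1598 CPM in tumors 1 and 5, against 2385 to 3458 CPM. The actin capping subunit Capza2 was at 3194 and 4604 CPM, against 5689 to 8411 CPM. St7 was at 198 and 290.3 CPM, against 381 to 496 CPM, and Cttnbp2, a cortactin-binding protein, at 21.4 and 28.1 CPM, against 42.0 to 70.2 CPM. For all 5 genes tumors 1 and 5 were the lowest and did not overlap with the other 6, which was so for 3.82% of all genes tested and 3.11% of those called.

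Not all genes between Tes and Lsm8 followed. The chloride channel Cftr was at 0.987 and 0.949 of its median in tumors 1 and 5, and the ligand Wnt2 at 0.715 and 1.44. Asz1, a germ cell gene, was at 0.226 and 0.638, from a median of 1.504 CPM, and was not called. The receptor tyrosine kinase Met was not low in tumor 1. It was at 6344 CPM there, between the 4494 CPM of tumor 5 and the 8191 CPM of tumor 3, and it was not called. Relative to the median of the 8 tumors, tumor 1 stood at 0.456 for Cav1, 0.5264 for Capza2 and 0.976 for Met, and tumor 5 at 0.494, 0.759 and 0.691. The flanking genes Tes and Lsm8 were at 1.10 and 1.19 of their medians in tumor 1, and at 0.735 and 0.864 in tumor 5, where Tes was thus lower relative to its median than Capza2. Without tumor 1, Cav1 was still called, and Cav2, Capza2, St7 and Cttnbp2 were not. DNA was not measured, and copy number in this region was not tested. Among 11334 windows of 5 neighboring protein-coding genes, 8 held 4 or more called genes, and the others of these 8 lay at clusters of myosin, troponin and MHC class II genes.

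**Figure D4:**
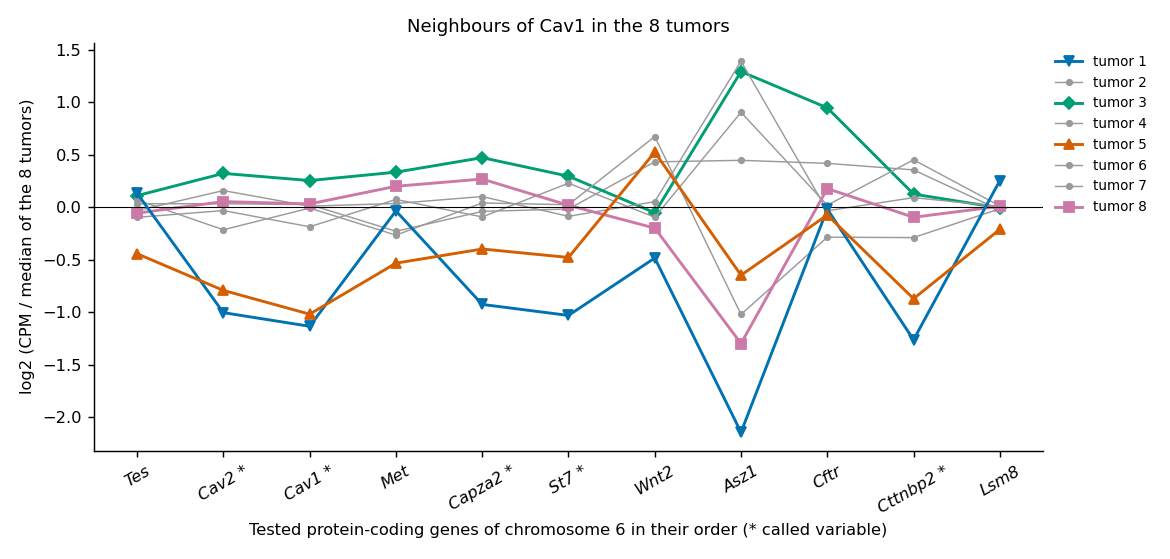
Level of 11 neighboring genes of chromosome 6 in each tumor, as log2 of CPM over the median of the 8 tumors, in the order of the genes, with called genes starred. Tumor 1 lies near −1 for Cav2, Cav1, Capza2, St7 and Cttnbp2 and near 0 for Tes, Met and Cftr, and tumor 5 lies below 0 for all of these.

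Of 10 cell state lists tested, 5 had no gene called. None of 17 proliferation genes was called (1 at an unadjusted p under 0.05), and the score ranged over 0.55 (log2). The proliferation antigen Mki67 was at 188 CPM in tumor 6 and 307 to 393 CPM in the other 7, and Top2a, a DNA topoisomerase of dividing cells, at 320.4 to 494 CPM. Type I interferon genes ranged over 0.43, ribosomal proteins over 0.30, immediate early genes over 0.23, oxidative phosphorylation over 0.19 and the unfolded protein response over 0.15, all with no member called and at most 2 at an unadjusted p under 0.05. Hspa1b, an inducible chaperone, was at 79.1 CPM in tumor 5 and 5.25 to 17.6 CPM elsewhere, and its near-identical neighbor Hspa1a at 54.9 CPM, against 3.74 to 13.1 CPM. Of 13 chaperone genes 4 were called, and none without tumor 5. Of 14 cholesterol synthesis genes, 3 were called, with none without tumor 6, 1 without tumor 3 and 2 or 4 without any other single tumor.

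When called genes were grouped by how alike their profiles were over the 8 tumors, 2 modules held 413 of the 579 genes (71.3%). The first, of 240 genes, followed tumor 5, with a mean z score of 1.94 there and 0.588 in tumor 8. It contained all 12 called B cell genes, all 11 white adipocyte genes, all 7 called plasma cell genes and 59 immunoglobulin segments. Its closest genes were Satb1, Itih5, Apoc1, Klhdc7a and Ces1d. The second, of 173 genes, was low in tumors 1 and 8, with mean z scores of −1.53 and −1.20, and contained all 13 called skeletal muscle genes, 8 of the slow and cardiac muscle genes, 6 regeneration genes, 5 matrix genes, the 4 globin genes and 3 lymphatic genes. Its closest genes were Acta1, Cox6a2, Rian, Fxyd6 and Kcnc4. Membership in a module describes a shared profile over 8 libraries, and genes of different tissues entered the same module because the same tumors were high or low. With rank correlation, 144 of the 173 genes of the second module stayed together, whereas the first was divided, its largest group holding 105 of the 240 genes.

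The main axes of variation over all 13853 genes told the same tumors apart. The first took 39.4% of the variance and ran from tumor 1 (−44.5) to tumor 5 (73.1). The second took 28.2% and set tumor 8 (56.2) and tumor 1 (34.6) against the other 6. The next axes took 9.33% and 7.05%.

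Programs that did not fall into separate clusters of tumors were tested in pairs. Of 325 pairs among 26 such programs, 54 had an unadjusted p under 0.05 and 4 passed adjustment (Pearson correlation over 8 tumors, exact two-sided permutation test). The thymus list and the lymph node and follicle list were higher in the same tumors (r = 0.987, p = 9.92e-05, adjusted p = 0.0322, Spearman rho = 0.952, exact permutation p = 0.00114), also without the 2 tumors farthest from the median (r = 0.929). Erythroid and proliferation scores were opposed (r = −0.970, adjusted p = 0.0463, rho = −0.929, exact permutation p = 0.00223), with r = −0.936 without the 2 farthest tumors. The CD4 and regulatory T cell score followed that of serous cavity macrophages (r = 0.920, adjusted p = 0.0463, rho = 0.881, exact permutation p = 0.00724), with r = 0.855 without 2 tumors. MHC class I followed the interferon-gamma response (r = 0.933, adjusted p = 0.0463, rho = 0.905, exact permutation p = 0.00456), with r = 0.776 without 2 tumors. No pair passed adjustment by rank correlation, for which the lowest adjusted p was 0.0645. Without any 1 tumor no pair passed, but fewer tumors also raise the smallest p that can be reached. That outcome therefore cannot tell whether the pairs depend on single tumors. Scores of different cell types share the same libraries.

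**Figure D5:**
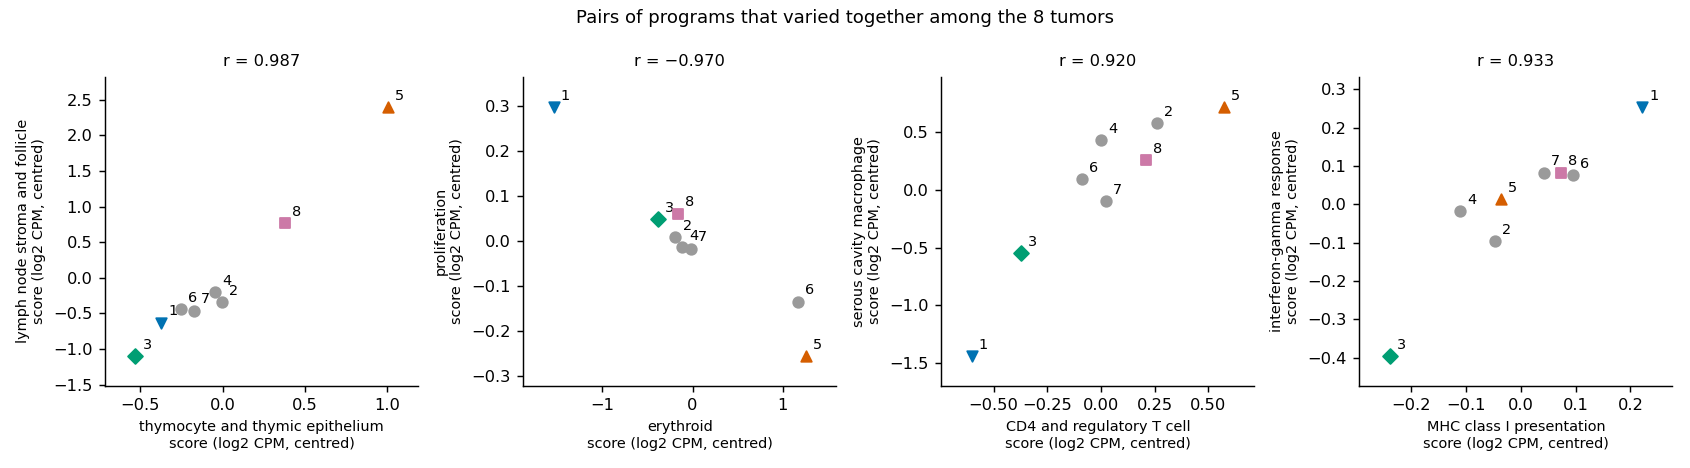
Scores of the 4 pairs of programs that passed adjustment, as centered log2 CPM, with 1 point per tumor labeled by its number. Tumor 5 lies at one end of the first 3 plots and tumors 1 and 3 at the ends of the last one, in which r is 0.933.

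Processed pseudogenes, copies of mRNAs in the genome, were often high in a single tumor when called. Of 1298 tested, 73 were called (5.62%), a share near that over all genes, and so were 4 of 59 annotated as transcribed. Of these 77, 35 were above 10 CPM in only 1 or 2 tumors. Rps3a2 was at 514 CPM in tumor 2 and at most 0.114 CPM in the other 7, while its parent gene Rps3a1 was at 885 CPM in tumor 2 and 907 to 1051 CPM elsewhere. Gm5879 was at 429.9 CPM in tumor 4 and at most 1.24 CPM elsewhere. Gm3756 was at 739.8 CPM in tumor 8 and at most 7.09 CPM elsewhere. Gm11808, annotated as protein-coding, was at 157 CPM in tumor 6 and at most 1.31 CPM elsewhere, and it was the fifth most variable protein-coding gene. Short reads could be placed on either of 2 copies, and the part of read placement in these values was not tested.

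A row of 7 unprocessed pseudogenes on chromosome 1, which resemble mitochondrial genes, was low in tumor 6 alone. Gm10925 was at 777 CPM in tumor 6 and 3576 to 4896 CPM in the other 7, and Gm28437 at 693 CPM against 2804 to 3880 CPM. In all 7 tumor 6 stood at 0.192 to 0.255 of the median of the others, and all 7 were called, none of them without tumor 6. Gm13340 and Gm13341, on chromosome 2, did not share this, at 2671 and 864 CPM in tumor 6 beside 2654 to 3744 and 910 to 1285 CPM. The mitochondrial genes themselves are not analysed here, so that their level cannot be set beside that of the copies, and the part of read placement in these values was not tested. Oxidative phosphorylation genes encoded in the nucleus ranged over 0.19 (log2).

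The headers place tumors 1 to 5 on lane 2 and tumors 6 to 8 on lane 1. No gene differed between lanes at an adjusted p under 0.05 (edgeR quasi-likelihood F test, lowest adjusted p = 0.293), 527 genes had an unadjusted p under 0.05, and DESeq2 called 7. Both low-muscle tumors and both B cell tumors were split between the lanes. Within lane 1 the skeletal muscle score ranged over 5.07 and the B cell score over 3.55, and within lane 2 over 5.54 and 4.29. The white adipocyte score ranged over 2.13 in lane 1 and 6.48 in lane 2.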

How the data were processed

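RNA of 8 AE17 IPL tumors, each from a separate mouse, was analysed, and the tumor was the unit of each test. P-values of the variability test compare the spread of a gene over these tumors with that of genes of like level. The authors mapped 50 bp single-end reads with HISAT2 2.0.4, counted them per gene with SummerizeOverlaps and deposited the counts without normalization. Per the labels, bcl2fastq 1.8.4 was also used. Multi-mapped reads and near-identical genes may be assigned differently between libraries. The GENCODE M21 annotation of GRCm38 held 39495 of the 39676 gene identifiers when version numbers were ignored, and 36719 when they were kept. The methods name another build (mm11), so that only gene types, chromosomes and gene order were taken from the annotation. 24 further columns belong to the other samples and were not used.

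Counts were scaled with TMM factors in R 4.3.3 with edgeR 4.0.16. Variable genes were found with the edgeR goodness-of-fit test at the trended dispersion over genes whose mean reached 1 CPM, with Benjamini-Hochberg adjustment at 0.05. Lanes were compared with edgeR's quasi-likelihood F test. Scores used a prior count of 2 and at least 3 members. Modules of at least 20 genes came from average linkage on 1 minus r at a height of 0.4. Correlations used all pairings of the 8 tumors, leaving out 20 of 46 programs whose largest gap was over 0.5 of the range. Alternatives used DESeq2 1.42.0, scran 1.30.0, other scaling, filters and members, and leaving out each tumor. Leaving out tumors 1, 5 and 8 together and using protein-coding genes only were chosen after seeing the data. On simulated data with 1 of 8 tumors raised, the variability test called 87 of 100 genes raised 4 times and 100 of 100 raised 16 times. There were 9 calls among the unchanged of 13853 genes. The raised genes all had a mean of at least 10 CPM, so that recovery at lower levels was not tested. Every gene was drawn at the trended dispersion, whereas the median deviance ratio of the data was 0.243, so that these rates need not hold for the data. Plots were drawn with matplotlib 3.10.9.

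The tumors to describe and the lists were chosen with earlier results of these data known. Named genes are the 20 most variable protein-coding genes, the 5 least variable with a mean of at least 10 CPM, at most 2 members per list with the highest mean and 2 with the largest deviance ratio, and 5 genes closest to each module. All other genes named, among them further list members, the neuron and glucocorticoid groups, the tumor 1 genes, the chromosome 1 and 6 neighbors and the pseudogenes, were picked with their values in view. The reads had no molecular identifiers, so that detection limits account for counting error alone. The values of 2 genes are not reported here.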

Additional observations from a re-analysis of the deposited data

Results flagged for a closer look

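For 13 of the 46 scored programs, the highest or lowest tumor was set apart from the other 7. Its gap, relative to the whole range, was wider than Dixon's critical value, which chance gives in about 1 in 20 groups. The lists were chosen with earlier results of these data known, and their scores share the same tumors. The count of 13 therefore cannot be read against that rate. Tumor 5 was the highest for white adipocyte (4.74), brown adipocyte (3.49), fibroblast (1.39), epidermis (0.83), smooth muscle and pericyte (0.82) and heat shock chaperones (0.60), on the centered log2 scale. The epidermis score rests on 3 genes, none of them called, and of these Dsp was at 6.06 CPM in tumor 5 beside a median of 1.04 CPM, while Sfn and Krt10 ranged over 10.1 to 11.9 and 1.40 to 2.16 CPM. Tumor 1 was the lowest for mesothelium (−1.87), macrophages (−0.57) and monocytes (−0.49). Tumor 8 was the lowest for mast cells (−1.57) and the highest for NK cells (0.57). Tumor 3 was the lowest for CD8 and cytotoxic effector genes (−0.75), and tumor 6 the highest for ribosomal proteins (0.19).

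The sympathetic neuron set, at 4.08 in tumor 5, was put together because that tumor stood apart, and is not counted. Of the 143 genes named in the results, 49 had such a gap, but most were named for their variation or for standing apart in 1 tumor, so that this count cannot be read against the chance rate. Tumor 5 stood apart with Fabp4 at 598 CPM, Ucp1 at 86.6, Otop1 at 7.44, Myl7 at 8.76, Ces1d at 24.6 and Klhdc7a at 10.497 CPM. Among neuron genes in that tumor, Slc6a2 was at 46.2, Dbh at 28.5, Th at 18.8 and Snap25 at 9.42 CPM. Its stroma and stress genes were Col1a1 at 7653, Col1a2 at 4706, Pi16 at 44.2, Hspa1b at 79.1 and Hspa1a at 54.9 CPM. Tes was lowest there at 194 CPM and Gm13340 highest at 3744 CPM.

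In tumor 8, the lymphatic and mast cell genes stood apart at the lower end, with Mmrn1 at 0, Prox1 at 0.0556, Ccl21a at 0.5003, its copies Gm13304 and Gm21541 at 0.278 each, Tpsab1 at 0.5003 and Cpa3 at 7.95 CPM. In tumor 1, Upk3b, Lrrn4, Wt1 and Alox15 were at 0 and Alas2 was at 0.284 CPM. At the upper end of tumor 1 were Myo10 at 284, Mmp13 at 207, Pcdh7 at 86.0, Ptges at 83.7 and Sele at 32.8 CPM. In tumor 3, H2-Eb1 was at 355, H2-Ab1 at 320.1, Cxcl9 at 36.4, Plac8 at 28.9, Cd8a at 27.5 and Nkg7 at 11.8 CPM, all the lowest, and Fkbp5 was the highest at 209 CPM.

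Genes with copies elsewhere in the genome made up most of the rest. Rps3a2 was at 514 CPM in tumor 2, Gm5879 at 429.9 CPM in tumor 4, Gm3756 at 739.8 CPM in tumor 8 and Gm11808 at 157 CPM in tumor 6. Tumor 6 was also the highest for Rps3a1, at 1051 CPM, and the lowest for Gm10925, at 777 CPM, Gm28437, at 693 CPM, and the proliferation antigen Mki67, at 188 CPM.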

How the results depend on the processing

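The number of variable genes, 579, depended on the method that sets the expected spread. DESeq2's dispersion trend together with its size factors called 1140 genes, of which 576 were among the 579, and scran's trend called 2166, of which 423 were shared. Without the filter on the mean, 965 genes were called (563 shared) and modules held 790 genes in place of 413. Other scaling, a stricter threshold, a minimum of 10 counts in every tumor, protein-coding genes only and lane as a covariate gave 514 to 594 calls, but with 10 counts in every tumor only 290 of the 579 were tested, and all 290 were called. Leaving out 1 tumor gave 435 to 569 calls, the lowest without tumor 5, and between 292 and 453 genes in modules. The number of modules, 2, changed by more than 1.5 times in 7 of the settings tried and not in 9. Without tumors 1, 5 and 8, 229 genes were called (164 shared, of 432 that were still tested), modules held 135 genes, the first axis took 31.6% of the variance in place of 39.4% and 0 programs had a score range above 2, in place of 14. The first axis took 46.7% with protein-coding genes only and between 40.7% and 49.1% when 1 tumor was left out. The 4 pairs of programs that passed adjustment became 2 with DESeq2 size factors or after lane means were removed, and 0 with a prior count of 0.5, with medians over members and without any 1 tumor (0 to 0), where fewer tumors also raise the smallest p that can be reached. DESeq2 called 7 genes between lanes, against 0 by edgeR. The cause of these differences was not tested except where stated. None of the correlations compared between these settings changed sign. When each pair was recomputed without its 2 farthest tumors, the 4 pairs that passed adjustment kept their sign. Some of the other pairs changed sign, among them CD4 and regulatory T cell with proliferation and blood endothelium with dendritic cell. Levels in single tumors were not recomputed under other settings. No paired analysis was possible because only 1 group of tumors was described.

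With 1 library per tumor, a difference between single tumors has no replicate, and a gene high in 1 tumor passes or fails with that tumor. Genes under 1 CPM on average were not tested, and values below 0.181 CPM are at or under 3 counts in at least 1 library.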
